A study of Mus musculus with 8 samples.

Results

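The enzymes and regulators of lipid synthesis were followed across 3 genotypes of mouse lung epithelial cells, as a set of 47 genes chosen by name. They are 15 genes of fatty acid synthesis, desaturation, elongation and activation, 10 genes of phosphatidylcholine and glycerolipid synthesis and 13 enzymes of the sterol pathway. The others are 5 regulators of the SREBP transcription factors and 4 genes of the liver X receptors (LXR) and of sterol efflux. All 47 were found among the 43432 genes of the count table, and all 47 passed the filter on low counts, which left 14906 genes for testing. RNA was sequenced from EpCAM+CD45- cells, an epithelial gate without leukocytes, of 14-week-old C57BL/6J mice. ChiaRed+ cells of that gate came from mice homozygous (C/C, n = 2 libraries) or heterozygous (C/+, n = 3) for the ChiaRed allele, a reporter of AMCase expression, and WT mice (n = 3) gave the gate without a reporter sort. C/+ and C/C libraries therefore each differed from WT libraries both in genotype and in sorting, which cannot be told apart. C/C and C/+ libraries were sorted alike and differed in the number of ChiaRed copies. They also differed in the AMCase transcript Chia1, nearly absent in C/C (values below), and these differences cannot be told apart. The labels do not tie libraries to animals. Counts of sex-linked genes put libraries of both sexes in C/+ and in WT, so these groups each came from at least 2 animals, whereas the spread between libraries of 1 sex may be technical. Both C/C libraries were female, while 1 of the 3 C/+ and 2 of the 3 WT libraries were male. The sex balance thus also differed between C/C and WT, and between C/+ and each of them.

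Cells make fatty acids, phospholipids and sterols under the control of SREBP1 (gene Srebf1), which acts mainly on fatty acid genes, and SREBP2 (gene Srebf2), which acts mainly on sterol genes. When membrane sterol is low, the escort protein SCAP carries the SREBP precursors to the Golgi for cleavage. When sterol is high, INSIG proteins hold SCAP in the endoplasmic reticulum, and LXR, activated by oxysterols, induces sterol export genes and Srebf1. Alveolar type 2 (AT2) cells use these pathways to make surfactant, whose main lipid is a saturated phosphatidylcholine.

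Total counts were 46478577 and 41950581 in C/C, 30190458, 21239201 and 17057216 in C/+, and 36362406, 20232091 and 52319957 in WT libraries, so that counting error is small for all but the lowest members. Values per library are CPM, in which each count is divided by its TMM-scaled library size. Chia1, the AMCase gene, was at 1.45 and 0.365 CPM in C/C, against 223 to 341 CPM in C/+ and 268 to 454 CPM in WT libraries. The 10 AT2 markers took 28.3% to 28.9% of the scaled counts in C/C, 24.6% to 25.9% in C/+ and 21.1% to 24.1% in WT libraries, and no AT2 marker was at 0. The C/+ libraries stood apart in markers of other cells. Club cell markers summed to 0.0466% to 0.0691% in C/C, 0.513% to 0.967% in C/+ and 0.0431% to 0.109% in WT libraries. Endothelial markers summed to 0.00526% to 0.00589% in C/C, 0.0501% to 0.0864% in C/+ and 0.00675% to 0.0257% in WT. In C/+ against WT, 8 of 8 club and 10 of 10 endothelial markers were called higher, and in C/C against C/+ all of them were called lower. Of 6 mesothelial markers 4 were called higher in C/+ against WT and 6 lower in C/C against C/+, and of 10 mesenchymal and lipofibroblast markers 5 were called higher and 6 lower in these comparisons. Of 12 cell cycle genes 8 were called higher in C/+ against WT. Mitochondrial genes took 4.92% and 6.67% of counts in C/C, 3.94% to 6.399% in C/+ and 2.898% to 3.31% in WT libraries. Of 16 immediate early and dissociation genes, 9 were called higher in C/C than in C/+. Their sum was 1.30% to 1.69% in C/C, 0.426% to 0.701% in C/+ and 0.334% to 0.931% in WT. Xist and Y-linked counts marked both C/C libraries, C/+ 2, C/+ 3 and WT 1 as female and C/+ 1, WT 2 and WT 3 as male.

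The members spanned a wide range of length-scaled levels (RPKM, the CPM divided by exon length in kilobases). Scd1, the stearoyl-CoA desaturase that makes monounsaturated fatty acids, had the highest level of the 47, at 2822 RPKM in C/C, 2938 RPKM in C/+ and 2835 RPKM in WT libraries. Elovl1, an elongase of very long chain fatty acids, was next at 708 RPKM in C/C, 817 RPKM in C/+ and 780.2 RPKM in WT. Fasn, the fatty acid synthase, stood at 265 RPKM in C/C, 229.7 RPKM in C/+ and 311 RPKM in WT. Below the fatty acid genes, the leading member of each role was Srebf1 among the regulators (66.8 RPKM in C/C, 50.3 in C/+ and 67.4 in WT) and Hmgcs1 among the sterol genes (62.1 RPKM in C/C, 41.7 in C/+ and 55.1 in WT). Agpat2 led the glycerolipid genes (47.2 RPKM in C/C, 35.7 in C/+ and 35.8 in WT), and Nr1h2 the LXR and efflux genes (28.4 RPKM in C/C, 25.7 in C/+ and 25.5 in WT). At the low end, Elovl6, Pcyt1b, Abcg1, Idi1 and Pemt were each under 1 RPKM in all 3 groups. Reads of Scd1 and Scd2, which are paralogs, and of Idi1 and Fabp5, which have close copies in the genome, may have been split or dropped in the authors' counting, so their levels are uncertain.

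**Figure D1:**
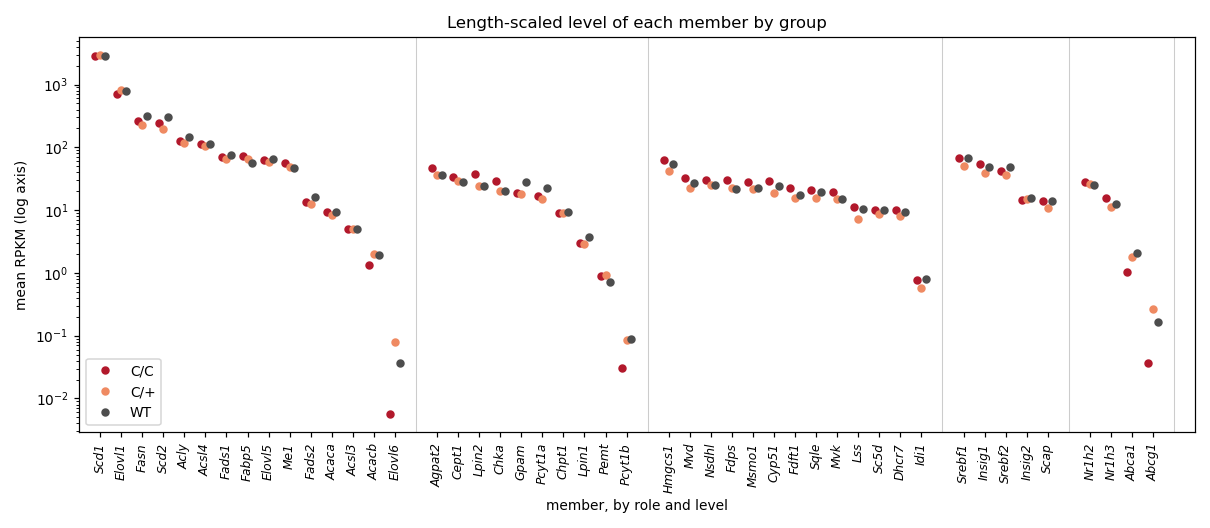
Mean RPKM of each of the 47 members in C/C (red), C/+ (orange) and WT (grey) libraries on a log axis, by role and falling level. Most members have group means close together on this axis, Scd1 is highest at 2822 to 2938 RPKM, and the C/C points of Elovl6 and Abcg1 lie far below those of the other groups.

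The 3 groups were compared with edgeR's quasi-likelihood test over all 14906 genes, and a gene with a Benjamini-Hochberg adjusted p under 0.05 is called. In C/C against C/+, 11 of the 47 members (23.4%) were called higher, where 1.75% of all tested genes were. Of the members, 3 (6.38%) were called lower, where 5.33% of all tested genes were. In C/+ against WT, 0 members were called higher (3.42% of all tested genes) and 3 were called lower (6.38%, against 0.503% of all tested genes). At an unadjusted p under 0.05, 0 members were higher (12.3% of all tested genes) and 15 lower (31.9%, against 7.80% of all tested genes). Between C/C and WT, 1 member was called higher (1.62% of all tested genes) and 1 lower (1.36% of all tested genes). The median log2 fold change over the 47 members was 0.18 in C/C against C/+, with a median of -0.01 over all genes. It was -0.16 in C/+ against WT, with 0.01 over all genes, and 0.01 in C/C against WT, with -0.03 over all genes.

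Groups without overlap between libraries gave a like picture. Every C/C library was above every C/+ library for 23 members (48.9%), against 18.1% of all tested genes, and below them for 5 (10.6%), against 20.2% of all tested genes. All C/+ libraries were below all WT libraries for 16 members (34.0%), against 10.7% of all tested genes, and above them for 1, against 14.1%. For C/C against WT, 13 members were higher without overlap (27.7%, against 20.8% of all tested genes) and 13 were lower (27.7%, against 22.6%). The comparisons share libraries. A low level in the C/+ libraries enters C/+ against WT as a negative and C/C against C/+ as a positive value, so the 2 counts are not separate observations.

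**Figure D2:**
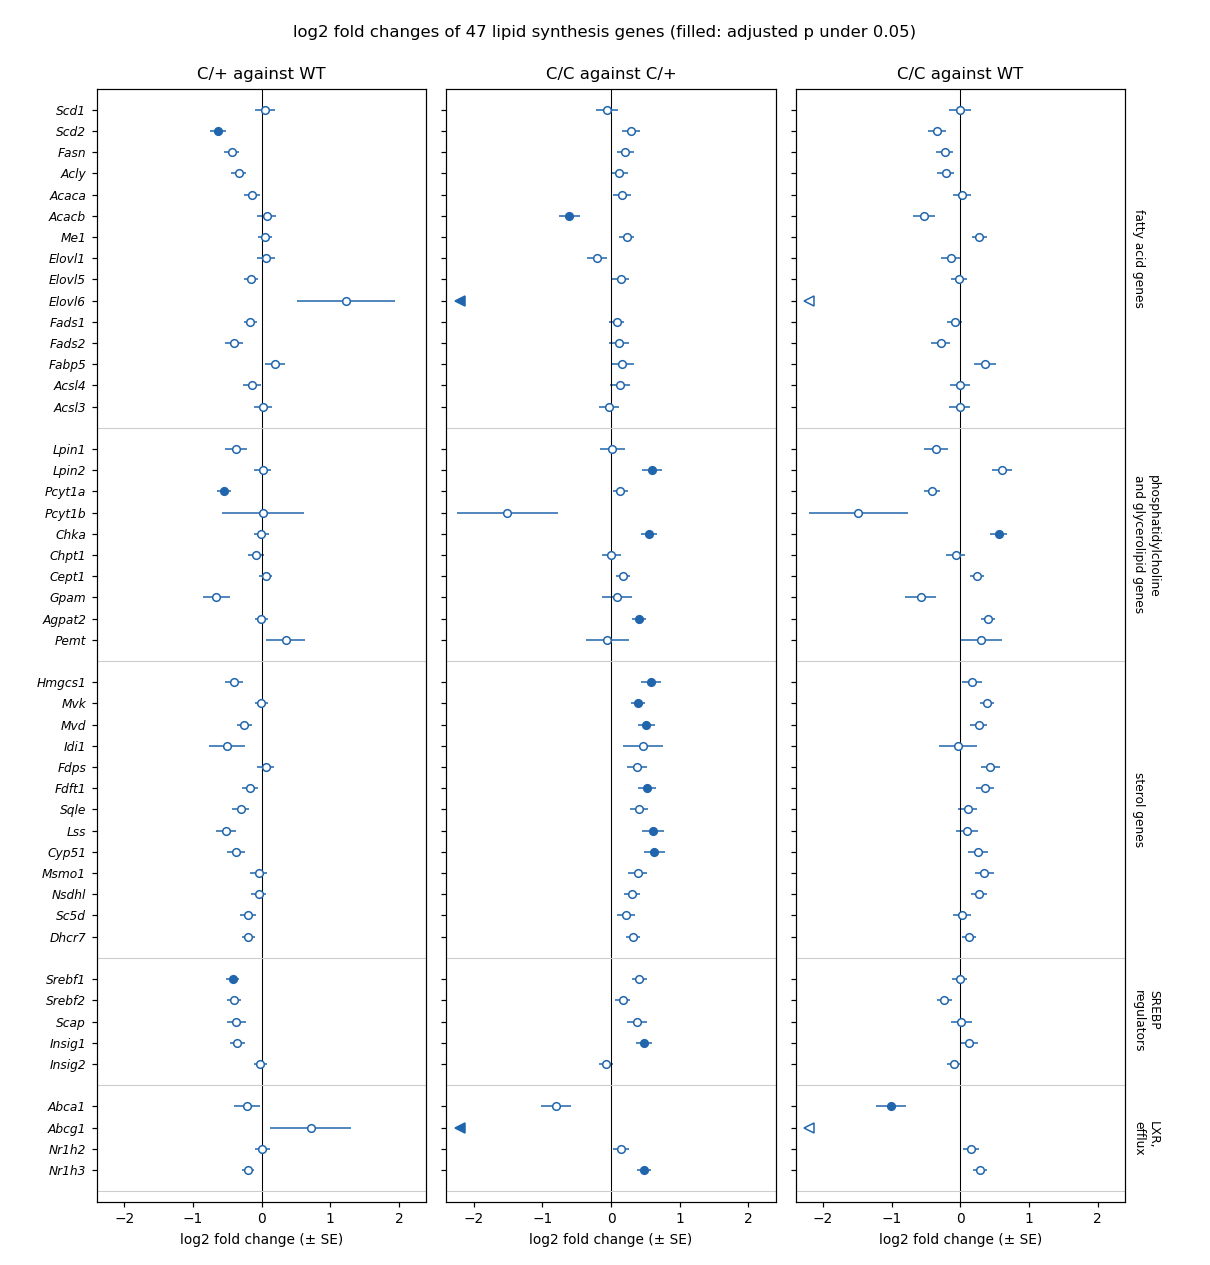
log2 fold change of each of the 47 members, with its standard error, in C/+ against WT, C/C against C/+ and C/C against WT. Filled points are called at an adjusted p under 0.05. Triangles at a fixed position, without error bars, stand for Elovl6 and Abcg1 in the comparisons of C/C (log2 fold change -3.705 to -2.12). The 13 sterol genes all lie right of 0 in C/C against C/+, where 6 of them are filled.

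Of the 5 regulators, Srebf1 was called lower in C/+ against WT and Insig1 higher in C/C against C/+. The shares of all tested genes so called were 0.503% and 1.75%. Srebf1 had 366 and 386 CPM in C/C, 252, 304 and 294 CPM in C/+ and 384, 380.4 and 375 CPM in WT libraries. The C/+ libraries were below all others, while C/C and WT libraries overlapped. Srebf1 fell in C/+ against WT (log2 fold change -0.42 ± 0.10 SE, adjusted p = 0.0427) and missed the threshold in C/C against C/+ (0.41 ± 0.11, adjusted p = 0.0502). In C/C against WT the difference was -0.01 ± 0.11 (adjusted p = 0.959). Within females (2 C/+ libraries, 1 WT library) the log2 ratio of C/+ to WT was -0.36, and within males (1 C/+ library, 2 WT libraries) it was -0.59, with no test. Insig1, the sterol-regulated inhibitor of SREBP transport, had 174 and 161 CPM in C/C, 136, 112 and 110.3 CPM in C/+ and 156, 141 and 161 CPM in WT libraries. All C/+ libraries were below both other groups. Insig1 rose in C/C against C/+ (0.49 ± 0.12, adjusted p = 0.0325), with -0.35 ± 0.11 (adjusted p = 0.0950) in C/+ against WT. Srebf2 and Scap were also lowest in C/+ by their means, without a call in any comparison. Srebf2 was at 233, 280.1 and 280.2 CPM in C/+ and 366, 343 and 338 CPM in WT libraries (-0.40 ± 0.10, adjusted p = 0.0569). Scap, the SREBP escort, was at 104 and 104 CPM in C/C and 71.1, 90.4 and 77.6 CPM in C/+ libraries (0.38 ± 0.15, adjusted p = 0.175). Insig2, the INSIG form that is not itself a major SREBP target, lay between 48.8 and 57.6 CPM in all 8 libraries, and its groups overlapped in each comparison. The call of Srebf1 was lost on leaving out any library except C/+ 3 (adjusted p 0.0659 to 0.137), and that of Insig1 without C/C 1, C/C 2, C/+ 2 or C/+ 3 (adjusted p 0.0648 to 0.275). Insig1 also lost its call with libraries scaled to total counts (0.106), and Srebf1 when C/+ and WT were fitted alone (0.0751) or genes were filtered at 1 CPM (0.0502). Club, endothelial, mesothelial and mesenchymal markers, cell cycle genes and the mitochondrial share were higher in C/+ than in WT, and their part in the values of C/+ against WT was not tested.

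Of the 13 sterol enzymes, 6 were called higher in C/C against C/+ (46.2%, against 1.75% of all tested genes). All 13 had a positive log2 fold change (0.22 to 0.63, median 0.41). Higher without overlap were 12 (92.3%, against 18.1% of all tested genes). At an unadjusted p under 0.05, 11 were higher (84.6%, against 7.85% of all tested genes). Between C/+ and WT 12 of the 13 were negative (median -0.20) and edgeR called 0. Lower without overlap were 3 (23.1%, against 10.7% of all tested genes). At an unadjusted p under 0.05, 4 were lower (30.8%, against 7.80% of all tested genes). Between C/C and WT 12 of the 13 were positive (median 0.25) and 0 were called. Higher without overlap were 6 (46.2%, against 20.8% of all tested genes). At an unadjusted p under 0.05, 5 were higher (38.5%, against 10.1% of all tested genes). In this comparison, with libraries scaled to total counts, only 7 of 13 were positive (median 0.08), while the median over all genes moved to -0.20. With sex as a covariate 9 of 13 were positive (median 0.08), and without WT 2 likewise 9 (median 0.14). Summed over the 13 genes, sterol transcripts made up 0.135% to 0.136% of scaled counts in C/C, 0.0909% to 0.104% in C/+ and 0.0994% to 0.129% in WT libraries.

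Promoter sequence of some of these genes is shown because SREBP acts through sterol regulatory elements (SRE) close to the start of its targets, often with the factor NF-Y on a neighbouring CCAAT box. The windows are those of RefSeq on GRCm38.p6, from 250 bases before to 50 after a gene's start, 5′ to 3′ on the gene's strand. Capitals mark matches to TCACNCCAC (an SRE) or CCAAT on either strand, where CCAAT on the other strand reads ATTGG. Hmgcs1 (chr13:119690101-119690400, + strand) holds an SRE beginning 137 bases before the start and 4 CCAAT boxes. Mvk (chr5:114444019-114444318, + strand) holds 5 CCAAT boxes. Cyp51 (chr5:4104648-4104947, - strand) and Insig1 (chr5:28071162-28071461, + strand) hold 1 each. Pcyt1a, the phosphatidylcholine gene treated further on, has more than 1 window. The window shown (chr16:32430671-32430970, + strand) holds an SRE beginning 116 bases before its start and no CCAAT box. In another (chr16:32430770-32431069) the same SRE begins 215 bases before the start, and the window chr16:32430980-32431279 holds no SRE.
Hmgcs1: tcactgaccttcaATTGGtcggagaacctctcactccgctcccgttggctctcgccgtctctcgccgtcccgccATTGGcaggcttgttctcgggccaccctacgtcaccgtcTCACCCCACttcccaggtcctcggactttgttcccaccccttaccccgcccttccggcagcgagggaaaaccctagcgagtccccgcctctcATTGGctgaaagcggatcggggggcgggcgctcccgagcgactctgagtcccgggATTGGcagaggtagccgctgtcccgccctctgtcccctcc
Mvk: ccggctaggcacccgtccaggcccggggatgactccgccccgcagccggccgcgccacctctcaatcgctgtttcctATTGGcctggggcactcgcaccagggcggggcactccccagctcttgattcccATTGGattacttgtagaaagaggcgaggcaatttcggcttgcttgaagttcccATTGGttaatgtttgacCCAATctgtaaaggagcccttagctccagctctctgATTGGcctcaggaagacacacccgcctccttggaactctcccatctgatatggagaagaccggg
Cyp51: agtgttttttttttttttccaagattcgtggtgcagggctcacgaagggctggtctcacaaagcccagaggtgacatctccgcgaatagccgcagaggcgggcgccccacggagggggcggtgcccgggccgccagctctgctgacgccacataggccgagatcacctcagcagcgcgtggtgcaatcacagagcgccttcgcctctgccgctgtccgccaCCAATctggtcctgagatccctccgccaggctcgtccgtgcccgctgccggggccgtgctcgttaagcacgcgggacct
Insig1: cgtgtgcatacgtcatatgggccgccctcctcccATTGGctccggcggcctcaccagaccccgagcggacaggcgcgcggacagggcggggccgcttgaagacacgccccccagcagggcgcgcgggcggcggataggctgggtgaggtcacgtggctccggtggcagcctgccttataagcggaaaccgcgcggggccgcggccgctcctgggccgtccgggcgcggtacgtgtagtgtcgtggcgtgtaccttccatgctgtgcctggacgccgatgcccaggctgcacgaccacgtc
Pcyt1a: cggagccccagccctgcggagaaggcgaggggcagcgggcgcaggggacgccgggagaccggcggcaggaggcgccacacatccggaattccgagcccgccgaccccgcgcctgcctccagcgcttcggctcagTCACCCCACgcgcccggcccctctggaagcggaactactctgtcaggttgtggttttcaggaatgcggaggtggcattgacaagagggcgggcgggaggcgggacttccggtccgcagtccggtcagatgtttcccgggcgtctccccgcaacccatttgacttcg

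RefSeq windows were at hand for 39 of the 47 members (58 windows). TCACNCCAC was in at least 1 window of 2 of the 39 members, Hmgcs1 and Pcyt1a, and of 1.44% of all 27025 genes with a window. CCAAT was in at least 1 window of 10 of the 10 sterol genes with one, of 28 of the 39 members, and of 41.1% of all genes. A letter match is no measure of binding, and the absence of these letters says nothing of SREBP.

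Hmgcs1, which makes HMG-CoA at the head of the pathway, had 272 and 299 CPM in C/C, 185, 165 and 225 CPM in C/+ and 278, 219.5 and 262 CPM in WT libraries. Both C/C libraries were above all C/+ libraries, and the C/+ and WT ranges overlapped slightly through C/+ 3 and WT 2. Hmgcs1 rose 1.49-fold in C/C against C/+ (log2 fold change 0.58 ± 0.15, adjusted p = 0.0410). It stood at -0.40 ± 0.13 (adjusted p = 0.123) in C/+ against WT and 0.17 ± 0.15 (adjusted p = 0.540) in C/C against WT. Mvk, the kinase that phosphorylates mevalonate, had 51.1 and 54.2 CPM in C/C, 37.8, 38.6 and 43.8 CPM in C/+ and 39.9, 40.8 and 39.9 CPM in WT libraries. C/C stood above both other groups, which overlapped, and Mvk rose in C/C against C/+ (0.39 ± 0.10, adjusted p = 0.0456). Mvd, which decarboxylates mevalonate diphosphate to isopentenyl diphosphate, had 60.9 and 58.3 CPM in C/C, 43.02, 44.7 and 37.3 CPM in C/+ and 56.3, 44.02 and 48.3 CPM in WT libraries. C/C libraries were above all others, C/+ and WT overlapped, and Mvd rose in C/C against C/+ (0.52 ± 0.13, adjusted p = 0.0348).

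Further down the pathway, 3 enzymes from squalene to the first sterols were also called. Fdft1, the squalene synthase, had 92.2 and 98.6 CPM in C/C, 59.99, 66.3 and 73.5 CPM in C/+ and 83.6, 64.1 and 75.96 CPM in WT libraries. C/C was above all other libraries, and C/+ and WT overlapped. Fdft1 rose 1.43-fold in C/C against C/+ (0.52 ± 0.13, adjusted p = 0.0362). Lss, which cyclizes oxidosqualene to lanosterol, had 117 and 122 CPM in C/C, 69.03, 76.4 and 89.98 CPM in C/+ and 137, 93.8 and 106 CPM in WT libraries. All C/+ libraries were below all others, and the C/C libraries lay inside the WT range. Lss rose in C/C against C/+ (0.61 ± 0.16, adjusted p = 0.0454) with -0.52 ± 0.14 (adjusted p = 0.0762) in C/+ against WT. Cyp51, the lanosterol demethylase, had 132 and 125 CPM in C/C, 74.3, 84.8 and 90.7 CPM in C/+ and 131, 89.9 and 103 CPM in WT libraries. The C/C libraries were above all C/+ libraries, and WT spanned from the C/+ level in WT 2 to the C/C level in WT 1. The rise of Cyp51 in C/C against C/+ was 1.55-fold (0.63 ± 0.15, adjusted p = 0.0305).

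The other 7 sterol genes were not called in any comparison. Fdps, which makes farnesyl diphosphate, Sqle, the squalene epoxidase, and Msmo1, Nsdhl and Dhcr7, which act on the sterol ring after lanosterol, were higher in both C/C libraries than in every C/+ library, at adjusted p 0.106 to 0.156. Idi1, an isomerase of isopentenyl diphosphate, was also higher without overlap, at 2.501 and 2.95 CPM in C/C against 1.57, 2.099 and 2.29 CPM in C/+ libraries. Only Sc5d, a desaturase late in the pathway, overlapped between C/C (47.7 and 50.8 CPM) and C/+ (40.4, 38.2 and 48.2 CPM).

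**Figure D3:**
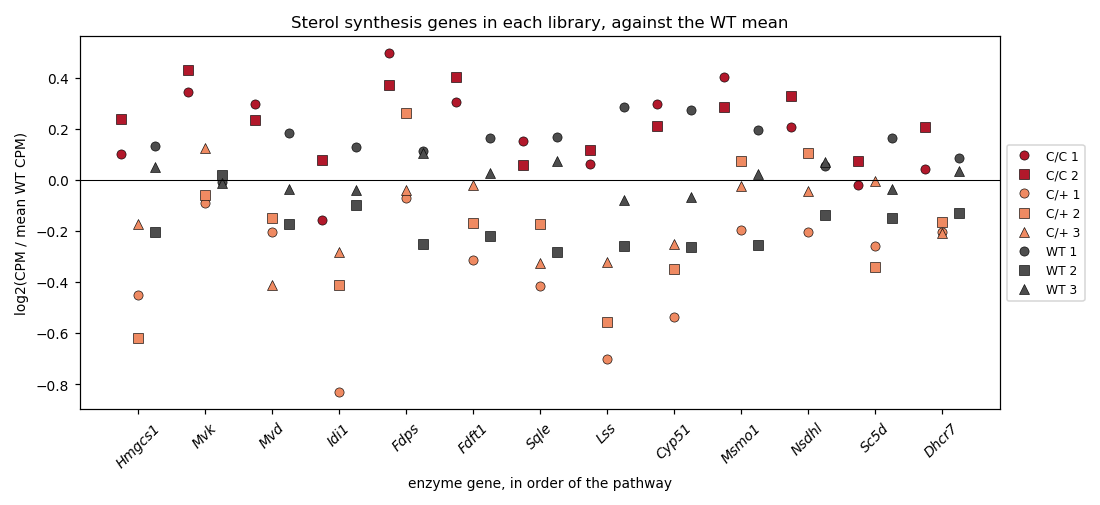
log2 of each library's CPM over the mean WT CPM for the 13 sterol genes in pathway order, with C/C in red, C/+ in orange, WT in grey and the marker shape giving the replicate number. The C/C points lie above the C/+ points for 12 of 13 genes (Sc5d is the exception), and the highest library of all is a WT library for 4 of 13 genes. WT 2 is the lowest WT library for 12 of 13 genes.

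The WT libraries ordered much alike across the pathway, while the order of the 2 C/C libraries varied from gene to gene. WT 1, the female WT library, was the highest of the WT libraries for 11 of 13 sterol genes and WT 2 the lowest for 12 of 13. C/+ 1, the male C/+ library, was the lowest C/+ library for 9 of 13. Within females the median log2 ratio over the 13 genes was 0.35 for C/C over C/+, with 13 of 13 positive. It was 0.04 for C/C over WT 1, with 8 of 13 positive, and -0.33 for C/+ over WT 1, with 11 of 13 negative. Within males it was -0.18 for C/+ over WT, with 13 of 13 negative. With the female libraries alone, edgeR called 2 of the 13 higher in C/C than in C/+ (median 0.36), and with sex as a covariate 5 (median 0.36, Mvk lost at 0.0545). The calls rested on few libraries. Of the 13, 0 were called without C/C 1, C/C 2, C/+ 1 or C/+ 2 (adjusted p of the 6 genes 0.0682 to 0.303). There were 5 without C/+ 3 (Mvd lost, 0.0671) or WT 2 (Mvk lost, 0.0780), and 1, Cyp51, without WT 3 (the others 0.0518 to 0.0738), although all 13 log2 fold changes stayed positive under each of these. With C/C 1 or C/C 2 left out, the lone C/C library was assumed to vary like the other groups. Total-count scaling also left 0 of 13 called, with a median of 0.29 beside a median of -0.13 over all genes. The filter at 1 CPM left 2 called. Club, endothelial, mesothelial and mesenchymal markers, lower in C/C than in C/+, and immediate early genes, higher in C/C, moved with this comparison, and their part in it was not tested. In bulk RNA, fewer cells of a type and less RNA per cell cannot be told apart. Exons of Fdft1 and Ctsb and of Cyp51 and Akap9 overlap on opposite strands, and the strand setting of the counting is not given in the sources used here.

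The phosphatidylcholine and glycerolipid genes did not move as a block. Of the 10, 3 were called higher (30%, against 1.75% of all tested genes) and 0 lower (against 5.33%) in C/C against C/+ (median 0.11). In C/+ against WT 0 were called higher (against 3.42%) and 1 lower (10%, against 0.503% of all tested genes), with a median of -0.003. Between C/C and WT 1 was called higher (10%, against 1.62% of all tested genes) and 0 lower (against 1.36%), with a median of 0.08. Pcyt1a, the rate-limiting enzyme of phosphatidylcholine synthesis, had 128 and 119 CPM in C/C, 112, 113 and 112 CPM in C/+ and 184, 145 and 164 CPM in WT libraries. All WT libraries were above both reporter groups, and the 3 C/+ libraries were within 2 CPM of each other. Pcyt1a fell in C/+ against WT (-0.55 ± 0.10, adjusted p = 0.0199). The values were -0.41 ± 0.11 (adjusted p = 0.0765) in C/C against WT and 0.14 ± 0.11 (adjusted p = 0.559) in C/C against C/+. The log2 ratio of C/+ to WT was -0.71 within females and -0.46 within males. Its paralog Pcyt1b was under 0.67 CPM in every library.

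Chka, the choline kinase of the step before Pcyt1a, had 375 and 331 CPM in C/C, 264, 241 and 216 CPM in C/+ and 259, 229.6 and 233 CPM in WT libraries. Both C/C libraries were above all others, while C/+ and WT overlapped. Chka was called in C/C against C/+ (0.56 ± 0.12, adjusted p = 0.0184) and in C/C against WT (0.55 ± 0.12, adjusted p = 0.0400), where it was the only member called higher. Lpin2, a phosphatidate phosphatase that supplies diacylglycerol, had 444 and 463 CPM in C/C, 259.7, 296 and 346 CPM in C/+ and 340.4, 285 and 267 CPM in WT libraries. The C/C libraries were again above all others. Lpin2 rose in C/C against C/+ (0.59 ± 0.14, adjusted p = 0.0318) and stood at 0.61 ± 0.14 (adjusted p = 0.0505) in C/C against WT, just over the threshold. Agpat2, which makes phosphatidic acid and had the highest length-scaled level of the 10, had 98.5 and 103 CPM in C/C, 74.4, 83.5 and 69.99 CPM in C/+ and 76.03, 78.3 and 74.2 CPM in WT libraries. C/C was higher without overlap. Agpat2 rose in C/C against C/+ (0.40 ± 0.10, adjusted p = 0.0362), with 0.40 ± 0.10 (adjusted p = 0.0603) in C/C against WT. Exons of Agpat2 overlap those of Egfl7, an endothelial marker, and exons of Pcyt1a those of Slc51a, both on opposite strands.

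Gpam, the mitochondrial acyltransferase of the first glycerolipid step, was at 116 and 135 CPM in C/C, 88.4, 127 and 139.7 CPM in C/+ and 243, 163 and 156 CPM in WT libraries. It was lower without overlap in both reporter groups but not called, at -0.66 ± 0.20 (adjusted p = 0.0951) in C/+ against WT and -0.58 ± 0.22 (adjusted p = 0.163) in C/C against WT. Lpin1, a second phosphatidate phosphatase, was likewise below all WT libraries in both reporter groups, at 20.7 to 32.5 CPM against 33.6 to 38.9 CPM in WT. Chpt1 and Cept1, the transferases of the final step, lay between 63.6 and 114 CPM in all libraries and were not called. The call of Pcyt1a was lost without C/+ 1, C/+ 2 or WT 3 (adjusted p 0.0657 to 0.0707). Chka lost its call in C/C against C/+ without C/C 1, C/C 2 or C/+ 2 (0.0654 to 0.219) and in C/C against WT without C/C 1, C/C 2, C/+ 2, WT 2 or WT 3 (0.0735 to 0.316). Lpin2 lost its call without C/C 1, C/C 2, C/+ 1, C/+ 2 or WT 2 (0.0539 to 0.201). Agpat2 lost its call without C/C 1, C/C 2, C/+ 1, C/+ 3, WT 2 or WT 3 (0.0607 to 0.243). Total-count scaling ended the calls of Chka, Lpin2 and Agpat2 in C/C against C/+ (0.0660, 0.0774 and 0.136) and of Chka in C/C against WT (0.0846). Lpin2 and Agpat2 were not called among the female libraries either (0.0541 and 0.145), nor Agpat2 with the 1 CPM filter or C/C and C/+ fitted alone (0.0550 and 0.0568). With total-count scaling the median of the 10 genes in C/C against C/+ was -0.01, beside -0.13 over all genes.

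The fatty acid genes held the highest levels, and few of them were called. Of the 15, edgeR called 0 higher and 2 lower in C/C against C/+ (median 0.12), where 1.75% and 5.33% of all tested genes were called. At an unadjusted p under 0.05, 1 was higher and 2 lower (7.85% and 13.1% of all tested genes). In C/+ against WT edgeR called 0 higher and 1 lower (median -0.14), with 3.42% and 0.503% of all tested genes called. At an unadjusted p under 0.05, 0 were higher and 4 lower (12.3% and 7.80% of all tested genes). Between C/C and WT edgeR called 0 in either direction (median -0.08). At an unadjusted p under 0.05, 2 were higher and 3 lower (10.1% and 12.0% of all tested genes). With total-count scaling the median in C/C against C/+ was -0.003, beside -0.13 over all genes. Scd1 had 12620.4 and 14991 CPM in C/C, 11370.2, 15294 and 16453 CPM in C/+ and 13453, 14274 and 13874 CPM in WT libraries. The groups overlapped in each comparison. Its log2 fold changes were -0.06 ± 0.16 in C/C against C/+, 0.05 ± 0.14 in C/+ against WT and -0.01 ± 0.16 in C/C against WT (0.891, 0.871 and 0.986 as adjusted p), and its sign changed between settings. Scd2, the paralog beside Scd1 on chromosome 19, had 1316 and 1324 CPM in C/C, 973, 1205 and 1045 CPM in C/+ and 1813, 1475 and 1711 CPM in WT libraries. WT libraries were above all others and C/C above C/+. Scd2 fell in C/+ against WT (-0.63 ± 0.12, adjusted p = 0.0200). It stood at 0.30 ± 0.13 (adjusted p = 0.223) in C/C against C/+ and -0.34 ± 0.13 (adjusted p = 0.171) in C/C against WT. The log2 ratio of C/+ to WT was -0.69 within females and -0.71 within males.

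The synthase Fasn was at 2192, 2707 and 2643 CPM in C/+ and 3421, 3343 and 3456 CPM in WT libraries, lower without overlap, and missed the threshold (-0.44 ± 0.11, adjusted p = 0.0630). Acly, which makes cytosolic acetyl-CoA (-0.33 ± 0.11, adjusted p = 0.122), and Fads2, a desaturase of polyunsaturated fatty acids (-0.40 ± 0.13, adjusted p = 0.113), had the same order in C/+ against WT. Acacb, the acetyl-CoA carboxylase tied to control of fatty acid oxidation, had 11.7 and 13.7 CPM in C/C, 19.3, 21.1 and 17.5 CPM in C/+ and 15.5, 19.5 and 20.01 CPM in WT libraries. Both C/C libraries were below all others. Acacb fell in C/C against C/+ (-0.61 ± 0.16, adjusted p = 0.0456), with -0.53 ± 0.16 (adjusted p = 0.0883) in C/C against WT. Acaca, the carboxylase of fatty acid synthesis itself, was at 125 to 175 CPM in all libraries and not called. Elovl6, an elongase of C16 fatty acids, was nearly undetected, at 0.0459 and 0.0261 CPM in C/C, 0.457, 0.746 and 0.353 CPM in C/+ and 0.233, 0.380 and 0.0930 CPM in WT libraries. Its call in C/C against C/+ (adjusted p = 0.0485) rests on 3 counts in C/C against 36 in C/+ libraries. Their ratio is 0.0703, with a 95% counting interval of 0.0138 to 0.222, which covers counting error only. The call of Scd2 was lost without C/+ 1 or WT 3 (adjusted p 0.0755 and 0.0700). Acacb lost its call without C/C 1, C/C 2, C/+ 1, C/+ 2, WT 2 or WT 3 (0.0589 to 0.371), and Elovl6 without any library except WT 3 (0.0525 to 0.316). Both also lost it with sex as a covariate (Acacb 0.0511, Elovl6 0.0595) and among the female libraries (0.0919 and 0.0536). DESeq2 size factors ended the call of Acacb (0.0520), and testing without a low-count filter that of Elovl6 (0.0526).

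**Figure D4:**
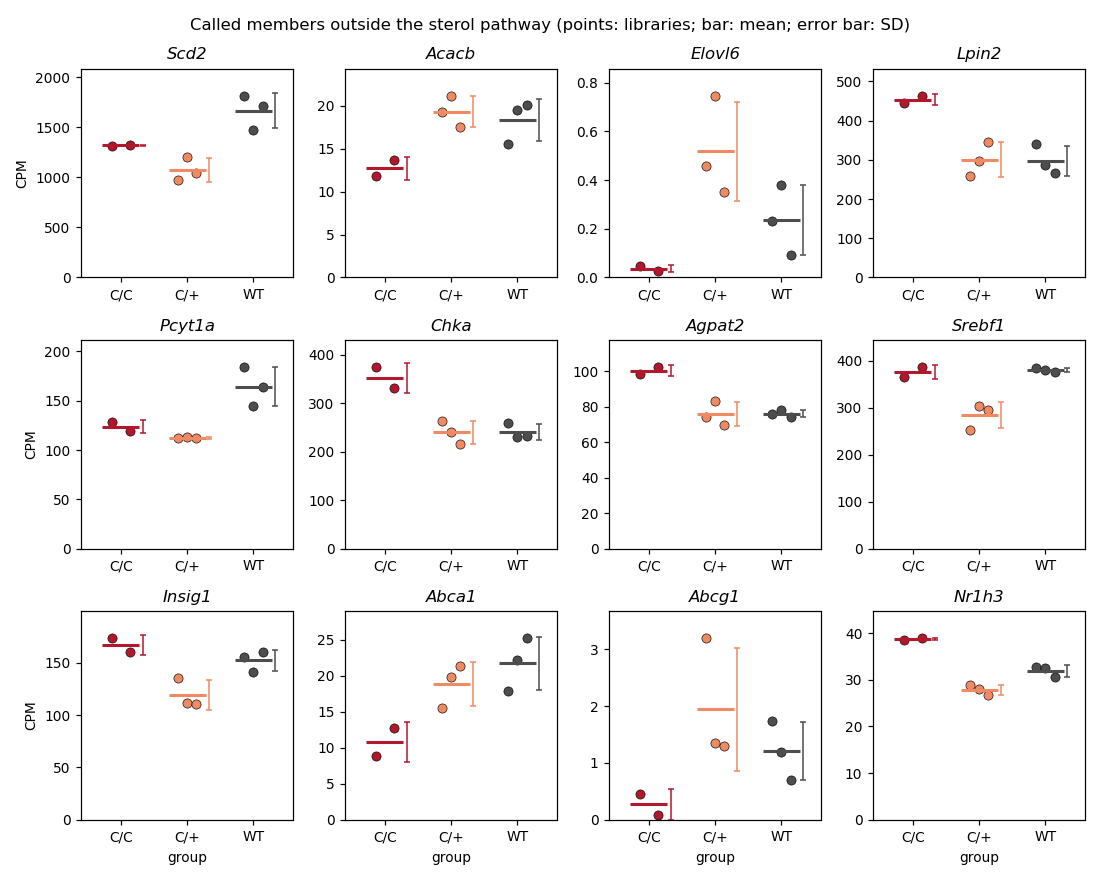
CPM in each library of the 12 members outside the sterol pathway that were called in at least 1 comparison, in C/C (red), C/+ (orange) and WT (grey); bars are means, error bars SD, and each panel starts at 0. C/C stands above the other groups for Lpin2, Chka, Agpat2 and Nr1h3 and below them for Acacb, Elovl6, Abca1 and Abcg1, while Srebf1 and Insig1 are lowest in C/+.

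Of the 4 LXR and efflux genes, Nr1h3 was called higher and Abcg1 lower in C/C against C/+, and Abca1 lower in C/C against WT. The shares of all tested genes so called were 1.75%, 5.33% and 1.36%. Nr1h3, which encodes LXR alpha, had 38.6 and 38.9 CPM in C/C, 28.8, 27.99 and 26.6 CPM in C/+ and 32.7, 32.4 and 30.5 CPM in WT libraries. C/C was highest, C/+ lowest and no groups overlapped. Nr1h3 rose in C/C against C/+ (0.48 ± 0.10, adjusted p = 0.0175), with 0.28 ± 0.10 (adjusted p = 0.137) in C/C against WT. Nr1h2, which encodes LXR beta, had 89.4 and 101 CPM in C/C, 80.4, 88.7 and 89.7 CPM in C/+ and 78.8, 97.2 and 80.9 CPM in WT libraries. Its groups overlapped, and it was not called. Abca1, the exporter of cholesterol and phospholipid to apolipoproteins and an LXR target, had 8.83 and 12.8 CPM in C/C, 15.5, 19.8 and 21.4 CPM in C/+ and 17.9, 22.2 and 25.2 CPM in WT libraries. Both C/C libraries were below all others. Abca1 fell in C/C against WT (-1.01 ± 0.21, adjusted p = 0.0392), with -0.80 ± 0.21 (adjusted p = 0.0505) in C/C against C/+. Within females the log2 ratio of C/C to WT 1 was -0.73. Abcg1, a second sterol exporter and LXR target, had 0.459 and 0.0782 CPM in C/C, 3.199, 1.35 and 1.29 CPM in C/+ and 1.73, 1.19 and 0.707 CPM in WT libraries. C/C was lowest without overlap. The call in C/C against C/+ (adjusted p = 0.0492) rests on 23 counts in C/C against 149 in C/+ libraries. Their ratio is 0.130, with a 95% counting interval of 0.0800 to 0.203 that covers counting error only, while the C/C libraries themselves differed. The log2 fold change of Abcg1 was -4.58 without C/C 1, -2.09 without C/C 2 and -2.26 without C/+ 1, beside -2.84 ± 0.75 with all libraries. Club, endothelial, mesothelial and mesenchymal markers were also lower in C/C than in C/+, and their part in the values of Abca1, Abcg1 and Elovl6 was not tested. The call of Nr1h3 was lost without C/C 1, C/C 2 or C/+ 2 (adjusted p 0.0599 to 0.158). Abca1 lost its call without C/C 1, C/C 2, C/+ 2, WT 2 or WT 3 (0.0641 to 0.315), and Abcg1 without C/C 1, C/C 2, C/+ 1, C/+ 2 or WT 2 (0.0731 to 0.282). Nr1h3 also lost its call with total-count scaling (0.0715) and among the female libraries (0.0558). Abcg1 lost its call with sex as a covariate (0.0656), among the female libraries (0.143) and with C/C and C/+ fitted alone (0.0635).

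Other genes of the same pathways, listed apart from the 47, were tested in the same model. Of 16 other genes of sterol synthesis, uptake and transport, 2 were called higher and 1 lower in C/C against C/+. The shares over all tested genes were 1.75% and 5.33%. Between C/+ and WT edgeR called 0. At an unadjusted p under 0.05, 1 was higher and 5 lower (12.3% and 7.80% of all tested genes). Between C/C and WT it called 0, with 3 higher and 1 lower at that p (10.1% and 12.0% of all tested genes). Pmvk, the kinase between Mvk and Mvd, had 187 and 199 CPM in C/C, 77.7, 93.6 and 55.7 CPM in C/+ and 128, 69.8 and 78.9 CPM in WT libraries. C/C was above all others, and Pmvk rose in C/C against C/+ (1.35 ± 0.25, adjusted p = 0.00939). Acat2, the thiolase that makes acetoacetyl-CoA, was at 87.6 and 88.1 CPM in C/C and 68.5, 66.8 and 54.2 CPM in C/+ libraries and rose (0.47 ± 0.11, adjusted p = 0.0321). Mylip, a ubiquitin ligase that LXR induces, had 4.54 and 4.09 CPM in C/C, 8.13, 6.44 and 8.53 CPM in C/+ and 7.26, 5.79 and 5.84 CPM in WT libraries. C/C was below all others, and Mylip fell in C/C against C/+ (-0.83 ± 0.21, adjusted p = 0.0406). Without C/C 1 or C/C 2, Pmvk, Acat2 and Mylip were not called in C/C against C/+ (adjusted p 0.0755 to 0.283). Acat2 also lost this call without C/+ 2 or WT 2 (0.0637 and 0.0515), and Mylip without C/+ 1, C/+ 3, WT 2 or WT 3 (0.0567 to 0.100). Among the female libraries neither was called (0.0559 and 0.113). Total-count scaling also ended the call of Acat2 (0.110), and fitting C/C and C/+ alone that of Mylip (0.0592).

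In the other lists calls were few in number, but some shares exceeded those over all tested genes. Triglyceride storage and lipolysis genes had 15.4% called higher in C/+ against WT (all tested genes 3.42%) and 7.69% in C/C against WT (1.62%). In C/C against C/+ 7.69% of them were lower (5.33%). Other fatty acid genes had 5.88% higher (1.75%) and 5.88% lower (5.33%) there. For fatty acid oxidation the share called lower there was 5.26%. Each share rests on 1 or 2 genes. Of 17 tested genes among 19 other fatty acid genes, Aacs, which activates acetoacetate for lipid synthesis, had 86.3 and 85.2 CPM in C/C, 45.9, 57.9 and 54.2 CPM in C/+ and 99.2, 62.7 and 73.7 CPM in WT libraries. C/C was above all C/+ libraries, and Aacs rose in C/C against C/+ (0.70 ± 0.17, adjusted p = 0.0347). Fabp4, a fatty acid binding protein of adipocytes and endothelium, fell (-2.27 ± 0.52, adjusted p = 0.0265), at 0.367 and 0.782 CPM in C/C and 3.88, 1.91 and 2.47 CPM in C/+ libraries. None of 21 other phospholipid and surfactant lipid genes was called by edgeR in any comparison. At an unadjusted p under 0.05 there were 4 higher and 0 lower in C/C against C/+ (7.85% and 13.1% of all tested genes), 0 and 6 in C/+ against WT (12.3% and 7.80%), and 1 and 3 in C/C against WT (10.1% and 12.0%). Of 13 tested genes of triglyceride storage and lipolysis, Plin2, a lipid droplet coat protein, had 187 and 203 CPM in C/C, 158, 182 and 194 CPM in C/+ and 109, 123 and 121 CPM in WT libraries. Both reporter groups were above WT without overlap. Plin2 rose in C/+ against WT (0.60 ± 0.10, adjusted p = 0.0163) and in C/C against WT (0.73 ± 0.11, adjusted p = 0.0157). Hilpda, an inhibitor of lipolysis induced by hypoxia, had 6.104 and 3.62 CPM in C/C, 13.8, 18.99 and 9.06 CPM in C/+ and 5.09, 5.17 and 5.37 CPM in WT libraries. It was highest in C/+ without overlap, rose in C/+ against WT (1.42 ± 0.27, adjusted p = 0.0222) and fell in C/C against C/+ (-1.52 ± 0.31, adjusted p = 0.0152). Of 19 fatty acid oxidation genes, Cpt1a, the carnitine transferase of mitochondrial import, was the only one called. It was at 53.9 and 58.2 CPM in C/C and 88.9, 89.5 and 102 CPM in C/+ libraries and fell (-0.73 ± 0.15, adjusted p = 0.0153). Leaving out C/C 1 or C/C 2 ended the calls of Aacs, Fabp4, Cpt1a and Hilpda in C/C against C/+ (adjusted p 0.0552 to 0.259) and that of Plin2 in C/C against WT (0.110 and 0.168). Leaving out C/+ 2, WT 2 or WT 3 ended those of Plin2 and Hilpda in C/+ against WT (0.0517 to 0.0817), as leaving out C/+ 1 did for Hilpda (0.0698). Aacs also lost its call without C/+ 1, C/+ 2 or C/+ 3 (0.0543 to 0.111), Fabp4 without C/+ 1 (0.0824) and among the female libraries (0.0752), and Plin2 in C/C against WT without WT 2 (0.0606). Total-count scaling ended the call of Aacs (0.0794), and the log2 fold change of Fabp4 was -2.90 without C/C 2.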

How the data were processed

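The authors deposited a table of whole-number read counts per gene, not normalised, for 8 libraries; the libraries were stranded mRNA libraries, per the labels' protocols. The submitters' processing notes name STAR 2.4.2a and DESeq2 without their roles, and the human build GRCh38, although the table holds mouse gene identifiers. How reads were counted, with which strand setting and annotation, was not stated in those notes or labels. Symbols, positions and exon lengths were taken from GENCODE on GRCm38, which gave a symbol for 42462 of 43432 identifiers.

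Columns were matched to samples by name and replicate number. Genes were filtered with filterByExpr by group and scaled by TMM factors (0.915 to 1.06). All 8 libraries entered 1 quasi-likelihood model with 3 group means (edgeR 4.0.16 under R 4.3.3), and p-values of the two-sided F tests were adjusted by Benjamini-Hochberg over 14906 genes. CPM are TMM-scaled, RPKM divide them by exon length, and fold changes are those of the fit. Each SE was worked back from the test, as the size of the log2 fold change over the square root of its F statistic. A simulation, in which 100 genes differed 2-fold and 100 differed 4-fold, served to check this fit. In C/C against C/+ it recovered 62% of the 2-fold and 92% of the 4-fold changes, beside 18 false calls. In C/+ against WT these values were 75%, 95% and 13, and in C/C against WT 73%, 98% and 17. They do not cover changes smaller than 2-fold. The 47 members, the roles, the pathway and marker lists and the rule for named genes (the 4 markers of the set, every called member, the highest member of each role, and up to 3 called genes of each other list by mean CPM) were chosen with earlier results of these data known. Same-numbered libraries did not deviate together (correlations of -0.21 to 0.09), so replicate numbers were not taken as pairs. Alternatives were the DESeq2 1.42.0 Wald test, scaling by DESeq2 size factors or by total counts, other low-count filters (none, or 1 CPM in at least 5 libraries), sex or replicate number as a term, fits of only the groups compared, and leaving out each library. The female libraries alone were added after the data were seen. No libraries of a group agreed within sampling noise. Some genes of the other pathway lists are not reported here.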

Additional observations from a re-analysis of the deposited data

How the results depend on the processing

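No call kept its side of the threshold under every setting, and 0 of the called member results changed sign. Of 19 called member results, 12 were lost with total-count scaling, 4 with sex as a covariate, 4 with the compared groups alone, 14 with the replicate block, 1 with DESeq2 size factors, 1 with no low-count filter and 0 with the DESeq2 Wald test; 6 of 18 were lost with the filter of 1 CPM and 10 of 14 in the female libraries. Recomputing all 141 member results (47 genes, 3 comparisons) gave 122 changes of sign among 2297 values. They fell in 43 results that were all not called and had a log2 fold change of at most 0.17 in size. After this was seen, single values were listed for the 4 markers in every comparison. For the other members and the other pathway genes named, they were listed only at an unadjusted p under 0.05. The planned list of alternatives did not have this restriction. The number of members called lower in C/+ against WT was 5 with total-count scaling, 12 with no low-count filter, 11 with sex as a covariate, 10 with the DESeq2 Wald test and 0 to 5 on leaving out a library. In C/C against C/+, the number called higher was 0 with total-count scaling, 6 with the filter of 1 CPM in 5 libraries, 4 in female libraries and 0 to 12 on leaving out a library, and the number called lower was 0 with sex as a covariate, 1 in female libraries and 0 to 3 on leaving out a library. In C/C against WT, the number called higher was 2 with DESeq2 size factors, 0 with total-count scaling, 4 with no low-count filter, 2 with the filter of 1 CPM, 3 with the compared groups alone, 5 with DESeq2 and 0 to 4 on leaving out a library, and the number called lower was 4 with total-count scaling, with no low-count filter, with sex as a covariate and with DESeq2, and 0 to 2 on leaving out a library. The labels do not say whether the numbers pair libraries. The replicate block gave 1 member called lower in C/+ against WT, 2 higher in C/C against C/+ and 0 higher in C/C against WT. The main-fit member calls it kept were Pcyt1a (C/+ against WT), Chka, Hmgcs1 and Abcg1 (C/C against C/+) and Abca1 (C/C against WT). The accounts of lost calls by gene given above leave the block out. With the block, Scd1 was at 0.0043 in C/C against C/+ and 0.0387 in C/C against WT. Calls over all genes also moved. In C/+ against WT, 75 genes were called lower in the main fit. With total-count scaling, no low-count filter, sex as a covariate or DESeq2 there were 161, 355, 653 or 326. In C/C against C/+, 261 were called higher in the main fit, 126 with total-count scaling and 197 with the 1 CPM filter. There 795 were called lower in the main fit and 820 with sex as a covariate.

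Total-count scaling moved the median over all genes to -0.13 in C/C against C/+ and -0.20 in C/C against WT. With it, the medians were -0.0026 (fatty acid genes), -0.0113 (phosphatidylcholine genes) and -0.45 (LXR and efflux genes) in C/C against C/+, -0.26, -0.0876 and -0.60 for the same roles and -0.19 for the SREBP regulators in C/C against WT, and -0.0556 for the phosphatidylcholine genes in C/+ against WT; Scd1 was at -0.0023 in C/+ against WT and Hmgcs1 at -0.0034 in C/C against WT. Sex as a covariate gave medians of 0.13 for the phosphatidylcholine genes and -0.11 for the SREBP regulators in C/C against WT, and -0.0346 for Scd1 in C/+ against WT. The filter of 1 CPM gave 0.23 for the phosphatidylcholine genes in C/C against WT, and the female libraries gave -0.41 for the LXR and efflux genes in C/C against C/+.
Leaving out a library gave the following ranges. In C/+ against WT the medians were -0.16 to -0.0435 (fatty acid), -0.0742 to -0.0063 (phosphatidylcholine), -0.26 to -0.15 (sterol), -0.45 to -0.32 (regulators) and -0.11 to -0.0098 (LXR and efflux). In C/C against C/+ they were 0.0285 to 0.17, 0.0913 to 0.17, 0.35 to 0.46, 0.30 to 0.43 and -0.52 to -0.16 in the same order of roles, and in C/C against WT -0.18 to -0.0125, -0.0526 to 0.21, 0.14 to 0.28, -0.0552 to 0.0140 and -0.62 to -0.26. Scd1 ranged from -0.0571 to 0.20 in C/+ against WT, -0.20 to 0.0661 in C/C against C/+ and -0.14 to 0.11 in C/C against WT; in the last comparison Srebf1 ranged from -0.0532 to 0.0267.

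The cause of these changes was not tested. Over all genes, the share of calls that were higher moved from 87.2% to 61.6% in C/+ against WT with sex as a covariate, and with total-count scaling to 73.6% in that comparison, from 24.7% to 11% in C/C against C/+ and from 54.3% to 12.1% in C/C against WT. In C/C against WT, 241 genes were called higher and 203 lower in the main fit. The counts were 149 and 1080 with total-count scaling, 607 and 849 with no low-count filter and 648 and 774 with DESeq2. Leaving out a C/+ or WT library gave 5 to 125 genes called lower in C/+ against WT and 112 to 367 called higher in C/C against C/+. With 2 C/C libraries and 3 in each other group, the spread between libraries and not depth limits most members; counting error is largest for Elovl6, Pcyt1b, Abcg1, Pemt and Idi1, and Abcg1 also varied between libraries, with a coefficient of variation of 55.6% in C/+.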
